A study of Ictidomys tridecemlineatus with 5 samples.

Results

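Opsin kinases and photoreceptor arrestins switch a photoreceptor off after light, and recoverin holds the kinase back. The set described here holds 7 genes, chosen by their Swiss-Prot names: the rod arrestin SAG (Swiss-Prot name ARRS), the cone arrestin ARR3 (ARRC), the beta-arrestins ARRB1 and ARRB2, the opsin kinases GRK1 (RK) and GRK7, and recoverin, RCVRN (RECO). All 7 were found in both tissues, among 13949 protein names present in both tables. The samples were whole eye and isolated retina of wild-type ground squirrels (Ictidomys tridecemlineatus), with no treatment, age or sex given in the labels. There were 2 eye libraries and 3 retina libraries, and the labels state that the RNA of 4 animals was pooled for library preparation. The deposited tables give 1 value per transcript for each tissue and none per library, so no difference below has a replicate check and no test was run.

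An opsin that has absorbed light keeps activating its G protein until it is shut off. An opsin kinase phosphorylates it, and an arrestin then binds the phosphorylated opsin and blocks the G protein. Recoverin is a calcium sensor that holds the kinase inactive while calcium is high in the dark. SAG and GRK1 are the classical rod proteins and ARR3 and GRK7 those of cones. GRK7 is not present in mice and rats. The beta-arrestins act on many receptors in most tissues. The retina of this diurnal squirrel is rich in cones.

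Levels are in RPKM, read counts scaled to the length of the transcript and to a read total, a unit inferred from the values, and the level of a gene is that of its highest transcript unless stated otherwise. A difference is the log2 of the eye level less that of the retina level, each after adding 1 RPKM, so that differences of low genes are understated. The step between the values fits a read total of 264219334 in eye and 355988270 in retina, which no label states. On that reading 1 RPKM on a transcript of 1000 bases stands for 264 and 356 reads, and the 95% intervals rest on it. The 95% Poisson intervals given below cover counting error only.

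The cone arrestin and recoverin were the most abundant of the 7 in both tissues, the rod arrestin followed, and the kinases and beta-arrestins were far lower. All 7 were lower in eye than in retina, where 50.3% of all 13383 proteins compared were lower in eye. The median difference of the 7 was -0.66, against -0.0035 over all proteins. Of the 7, GRK1 and RCVRN were at least 2-fold lower in eye, against 3.6% of all proteins. In bulk tissue, fewer cells of a type and less RNA per cell cannot be told apart.

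**Figure D1:**
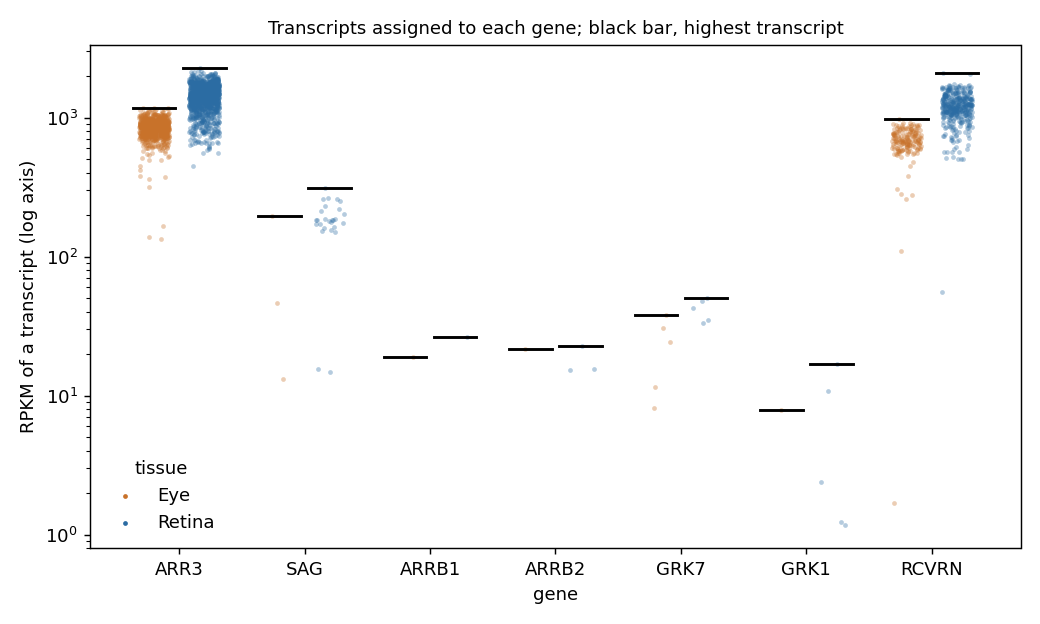
RPKM of every transcript assigned to each of the 7 genes (log axis) in eye and in retina, 1 point per transcript, with a black bar at the highest. ARR3 and RCVRN stand as dense clouds of 180 to 1138 transcripts per tissue, mostly above 500 RPKM, whereas ARRB1 has 1 transcript per tissue, at 18.97 and 26.47 RPKM.

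ARR3, which quenches cone opsins, stood at 1177 RPKM in eye (95% interval 1166 to 1188) and 2294 in retina (2283 to 2305). It ranked 59th of 15287 protein names in eye and 15th of 14600 in retina. The difference was -0.96, just short of 2-fold. This level rests on a transcript of 139 bases in eye and one of 204 bases in retina, since ARR3 was split into many short transcripts. There were 713 in eye, 708 of them under 200 bases, and 1138 in retina, 1135 of them under 200 bases. Most had the squirrel's own cone arrestin as best hit, 685 in eye and 1102 in retina, with a median similarity of 97% in both tissues.

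Among ARR3 transcripts under 150 bases the longer ones had the higher levels in both tissues. In eye the median was 733 RPKM below 110 bases, 858 from 110 to below 130 bases and 988 from 130 to below 150 bases. In retina the medians of the same bands were 1153, 1406 and 1709 RPKM. Retina exceeded eye 1.57-fold, 1.64-fold and 1.73-fold within these bands, less than the 1.95-fold of the highest transcripts, which differ in length. The thinly filled bands beyond gave larger ratios: 3.61-fold from 150 to below 200 bases, with medians of 545 and 1967 RPKM over 2 transcripts in eye and 10 in retina, and medians of 167 and 669 RPKM from 200 bases up, over 5 and 3. Transcripts were also compared that had the same Swiss-Prot hit and the same alignment length in both tissues, although the tables do not say which residues were aligned. ARR3 had 25 such alignments, and all 25 had a lower median level in eye, with a median difference of -0.73. These alignments overlap and can share reads, so they are not independent.

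Longer ARR3 transcripts were few and held other levels. The eye transcript of 1230 bases aligned with 218 residues of human cone arrestin at 99% similarity and stood at 540 RPKM. The longest retina transcript, of 5951 bases, stood at 452 RPKM, but its reported alignment covered 89 residues, 4.49% of its length. Between this pair the difference was 0.26, higher in eye. The sign of the ARR3 difference thus depended on the transcripts used.

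**Figure D2:**
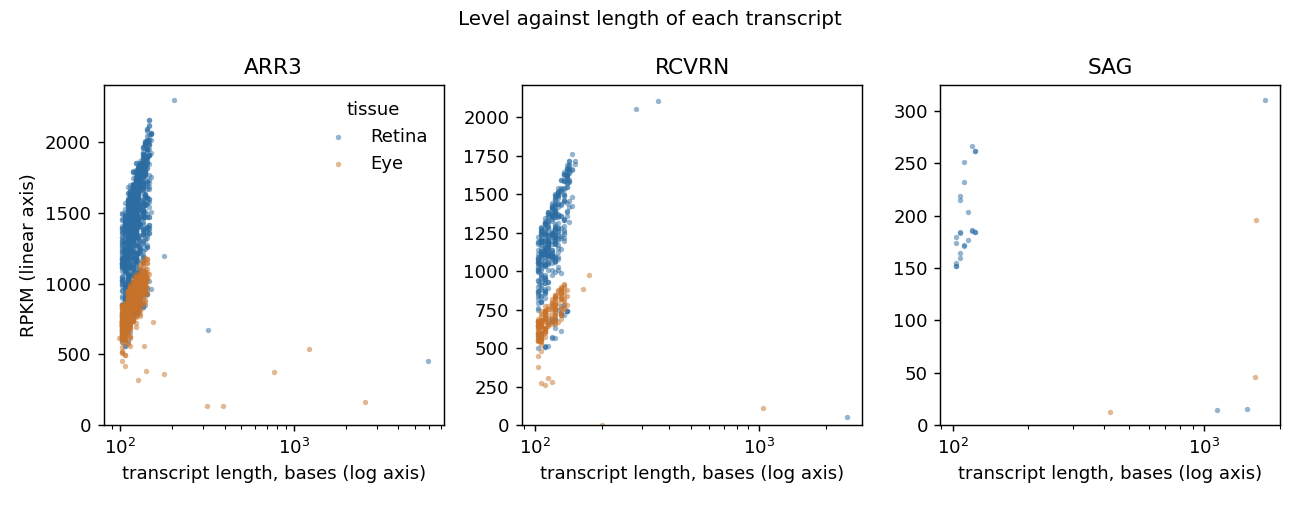
RPKM (linear axis) against length in bases (log axis) of each transcript of ARR3, RCVRN and SAG, in eye and in retina. Below 150 bases the ARR3 and RCVRN transcripts form steep clouds, with the retina median above the eye median in each length band, and the few long transcripts of both genes lie lower, except 3 in retina, of 204 bases for ARR3 and of 284 and 356 bases for RCVRN.

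SAG, which binds the rod opsin, stood at 196 RPKM in eye (195 to 197) and 310 in retina (308 to 311), a difference of -0.66. In contrast to ARR3, these values come from transcripts of 1606 and 1740 bases whose alignments with rat SAG were alike in both tissues, at 396 residues, 88% similarity and a score of 661. Between these 2 transcripts the level was 1.58-fold higher in retina. Eye held 2 further SAG transcripts, of 1594 bases at 46.2 RPKM and of 423 bases at 13.1 RPKM. Retina held 26 further ones, 24 of them under 200 bases. The difference was -2.72 with best-matching transcripts, where the eye transcript at 46.2 RPKM aligned with 405 residues and scored 664 against 661 for the one at 196 RPKM. The sum over transcripts gave -4.29, with 27 transcripts in retina against 3 in eye. Among transcripts of 200 bases or more, 3 in each tissue, the median was higher in eye, at 46.2 against 15.6 RPKM.

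ARRB1 and ARRB2, which act on many receptors in most tissues, are given for comparison, and the cells they came from were not tested. ARRB1 was a single transcript in each tissue, of 7300 bases in eye and 7252 in retina, with 418 residues aligned in both. It stood at 18.97 RPKM in eye (18.8 to 19.2) and 26.5 in retina (26.3 to 26.7), a difference of -0.46. ARRB2 stood at 21.6 RPKM in eye (21.3 to 21.9) and 22.8 in retina (22.4 to 23.1), with 409 residues aligned in both, and its difference of -0.073 lay at percentile 44.3 of all proteins. ARRB2 was higher in eye by the length-weighted mean (0.20) and by the median transcript (0.45), because the 2 shorter retina transcripts stood at 15.5 and 15.2 RPKM. ARRB1 had 0.879 times the level of ARRB2 in eye and 1.16 times in retina, though 0.495 times in retina with sums, where ARRB2 has 3 transcripts and ARRB1 has 1. SAG stood 10.3-fold above ARRB1 in eye and 11.7-fold in retina, but 2.43-fold and 6.95-fold with median transcripts and 5.73-fold and 5.94-fold by length-weighted means.

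GRK7 was the more abundant opsin kinase in both tissues. It stood at 38.1 RPKM in eye (37.7 to 38.5) and 50.5 in retina (50.1 to 50.9), a difference of -0.40. Its highest transcripts, of 3752 and 3917 bases, each aligned with 548 residues of the squirrel's own GRK7 at 93% similarity. Each tissue had 5 GRK7 transcripts, between 8.18 and 38.1 RPKM in eye and between 33.5 and 50.5 in retina. Over the ways of taking the level, its difference ranged from -0.88 with sums to -0.36 with a pseudocount of 5.

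GRK1 was the lowest of the 7 in both tissues, at 7.83 RPKM in eye (7.64 to 8.03) and 16.9 in retina (16.6 to 17.2), a difference of -1.02. Eye had 1 GRK1 transcript, of 2985 bases, with 563 residues aligned. Retina had 5, and none of them aligned over that length: the longest, of 2103 and 2085 bases, aligned with 420 and 382 residues and stood at 10.8 and 16.9 RPKM. With the best-matching transcript, at 10.8 RPKM, retina exceeded eye 1.38-fold and the 2-fold call was lost. The median retina transcript stood at 2.39 RPKM, below the eye value, since 3 retina transcripts of 416 to 566 bases stood between 1.17 and 2.39 RPKM.

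RCVRN, found in rods and cones, stood at 973 RPKM in eye (964 to 982) and 2103 in retina (2095 to 2111). It ranked 73rd of the protein names in eye and 19th in retina. The difference of -1.11 was the largest of the 7 by this measure. Like ARR3 it was split, into 180 transcripts in eye, 179 of them under 200 bases, and 403 in retina, 400 of them under 200 bases. The highest transcripts were of 174 bases in eye and 356 in retina. Within length bands the eye and retina medians were 608 and 1051 RPKM below 110 bases, 717 and 1200 from 110 to below 130 bases, and 829 and 1520 from 130 to below 150 bases. Retina thus exceeded eye 1.73-fold, 1.67-fold and 1.83-fold, below the 2-fold mark that the highest transcripts passed. From 150 to below 200 bases the ratio was 1.93, over 3 transcripts in eye and 2 in retina, and from 200 bases up it was 18.8, over 1 and 3. Of 32 matched alignments, 31 had a lower median level in eye, with a median difference of -0.76.

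Long RCVRN transcripts gave opposite answers. The eye transcript of 1047 bases aligned with 200 residues of human recoverin at 99% similarity and stood at 109 RPKM. No retina transcript aligned over that length; the one of 2473 bases, with 48 residues aligned, stood at 55.4 RPKM, and those of 356 and 284 bases stood at 2103 and 2051 RPKM. The difference was 0.97 when the level came from transcripts of at least 500 bases and -4.25 when it came from those of at least 200 bases.

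**Figure D3:**
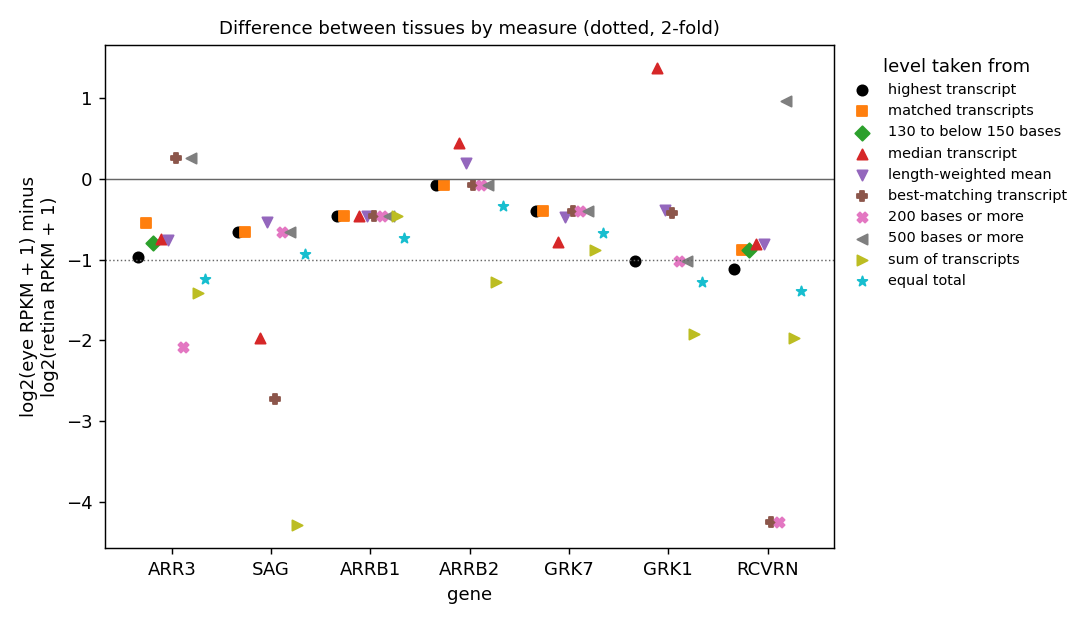
Difference between tissues (vertical axis, log2 scale, eye less retina, 1 RPKM added to each) for the 7 genes under 10 ways of taking the level, 1 symbol per way, with a dotted line at 2-fold lower in eye. GRK7 lies between -0.88 and -0.40, RCVRN runs from -4.25 to 0.97, and ARRB1 has 1 transcript per tissue, so that the scaling alone can move it.

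The number of the 7 that were lower in eye depended on the measure. All 7 were lower with sums over transcripts, where 53.2% of all proteins were, and with both tissues scaled to an equal total, where 66.3% were. Scaling to an equal total moved the median of all proteins to -0.25 and left ARRB2 at -0.34, close to it, and ARR3 at -1.24, past 2-fold. With best-matching transcripts 6 were lower (49% of all proteins) and with length-weighted means 6 (45.6%). With transcripts of 500 bases or more 5 were lower (51.2%), and with the median transcript 5 (44.9%). ARRB1 has 1 transcript per tissue, so that the choice of transcript could not change its value.

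**Figure D4:**
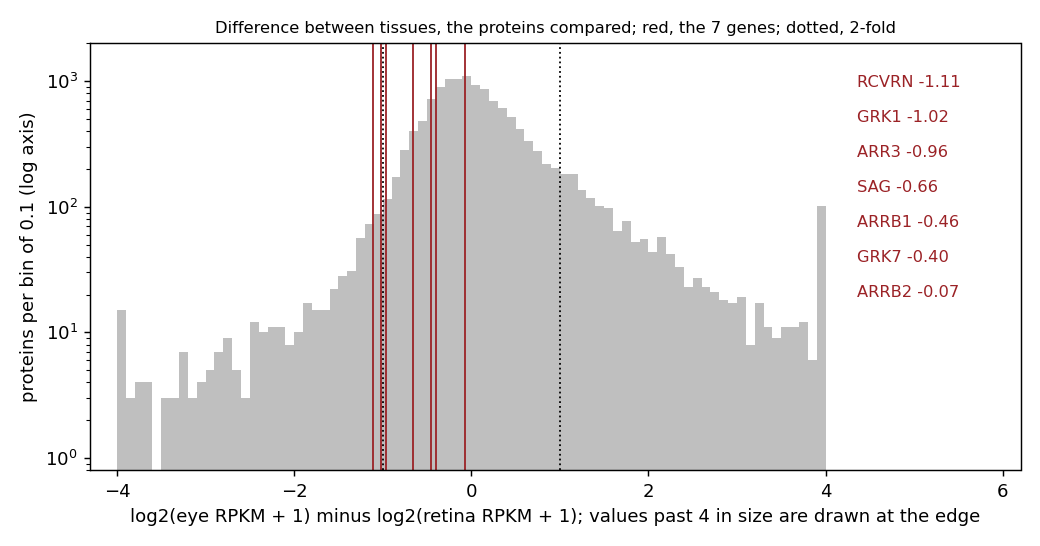
Histogram of the difference between tissues over the 13383 shared proteins that reached 1 RPKM in eye or retina, in bins of 0.1 with a log count axis. Red lines mark the 7 genes, from RCVRN at -1.11 to ARRB2 at -0.07, all left of 0, and dotted lines mark 2-fold.

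Ratios within a tissue are free of the scaling between tables. The cone arrestin exceeded the rod arrestin 6.01-fold in eye (5.94 to 6.08) and 7.41-fold in retina (7.36 to 7.46). Because short ARR3 transcripts are set there against a long SAG transcript, the ratio of transcripts of 500 bases or more is given beside it, 2.76 in eye and 1.46 in retina. The retina ratio rests on the ARR3 transcript of 5951 bases, aligned over 4.49% of its length. The cone kinase GRK7 exceeded GRK1 4.87-fold in eye (4.74 to 5.00) and 2.99-fold in retina (2.93 to 3.05), all from transcripts of 2085 bases or more. By each of the 8 measures of level, ARR3 stood above SAG and GRK7 above GRK1 in both tissues. Which tissue had the larger ratio depended on the measure for both pairs.

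Each arrestin stood far above its kinase. ARR3 was 30.9-fold above GRK7 in eye and 45.4-fold in retina, or 14.2-fold and 8.95-fold with transcripts of 500 bases or more. SAG was 25.03-fold above GRK1 in eye and 18.4-fold in retina, but 5.90-fold and 28.7-fold with best-matching transcripts and 5.90-fold and 76.9-fold with median transcripts. RCVRN exceeded GRK7 25.5-fold in eye and 41.7-fold in retina, but 2.87-fold and 1.10-fold with transcripts of 500 bases or more. At that length the retina levels of ARR3 and RCVRN rest on transcripts of 5951 and 2473 bases, aligned over 4.49% and 5.82% of their length. By the highest transcripts the order ARR3, RCVRN, SAG, GRK7 held in both tissues, but not by every measure. Below it ARRB2 stood above ARRB1 in eye and ARRB1 above ARRB2 in retina, with GRK1 last. Neighbours in these orders differed by more than counting error, and the spread between libraries is unknown.

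Other genes of the same families were compared through lists, which were chosen with earlier results of these data known. The 5 remaining receptor kinases, which act on many receptors, had a median difference of -0.011, with 3 lower in eye, 2 higher and none past 2-fold. Of all proteins, 50.3% were lower in eye, 3.6% at least 2-fold lower and 11.8% at least 2-fold higher. GRK2 (ARBK1) reached 24.0 RPKM in eye against 20.9 in retina, and GRK3 (ARBK2) at 9.15 and 9.22. After scaling to an equal total GRK2 and GRK5 were also below 0, at -0.077 and -0.21, but above the median of all proteins, then -0.25. GRK4 stood at 9.66 and 13.5 RPKM and GRK6 at 10.8 and 12.6.

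The alpha-arrestins, distant relatives that work in membrane protein turnover, went the other way. The 5 found were each higher in eye (median difference 0.54), where 50.3% of all proteins were lower. Of the 5, 2 were at least 2-fold higher, where 11.8% of all proteins were. TXNIP, which binds thioredoxin and limits glucose uptake, reached 92.3 RPKM in eye against 4.31 in retina. ARRDC1 stood at 6.41 and 4.10 RPKM, ARRDC2 at 5.65 and 1.42, and ARRDC3 at 9.86 and 7.03. ARRDC4, at 3.25 and 3.08 RPKM, had a difference of -0.15 after scaling to an equal total, where the median of all proteins was -0.25. ARRDC5 was in neither table.

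Calcium sensors related to recoverin were lower in eye for all 10 names, against 50.3% of all proteins, and their median difference was -0.44. When transcripts under 200 bases were left out, 9 of 10 were lower, with a median of -0.36. HPCAL1 reached 248 RPKM in eye against 350 in retina, hippocalcin HPCA at 149 and 172, and VSNL1 at 109 and 138. NCALD, the single one at least 2-fold lower, where 3.6% of all proteins were, stood at 22.9 and 168 RPKM. However, its retina value came from a transcript of 103 bases, and its difference was 0.34 with best-matching transcripts.

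Genes that activate the photoreceptor cascade were lower in eye for 18 of 19 names, against 50.3% of all proteins, and their median difference was -0.77. Of the 19, 5 were at least 2-fold lower, against 3.6% of all proteins. When transcripts under 200 bases were left out, 16 of 18 were lower. Among the other recovery proteins 7 of the 8 present in both tissues had the lower level in eye, and the median difference was -0.57. With transcripts of 200 bases or more 5 of the 8 were lower, against 50.3% of all proteins, with GUCA1A and GUCA1C at 1.15 and 0.17. With best-matching transcripts GUCA1A and GUCA1C were at -3.01 and -0.86. GUCA1C, a relative of GUCA1A, reached 580 RPKM in eye against 857 in retina. GNB5, which with RGS9 speeds the shutoff of the G protein, reached 79.1 RPKM in eye against 190.5 in retina, and RGS9 at 12.3 and 23.2. Phosducin, which binds the G protein subunits beta and gamma, stood at 151 and 169. R9AP (R9BP), the anchor of RGS9, at 19.9 RPKM, and the guanylate cyclase GUCY2D, at 21.2 RPKM, were in the retina table only, and GUCY2F was in neither.

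**Figure D5:**
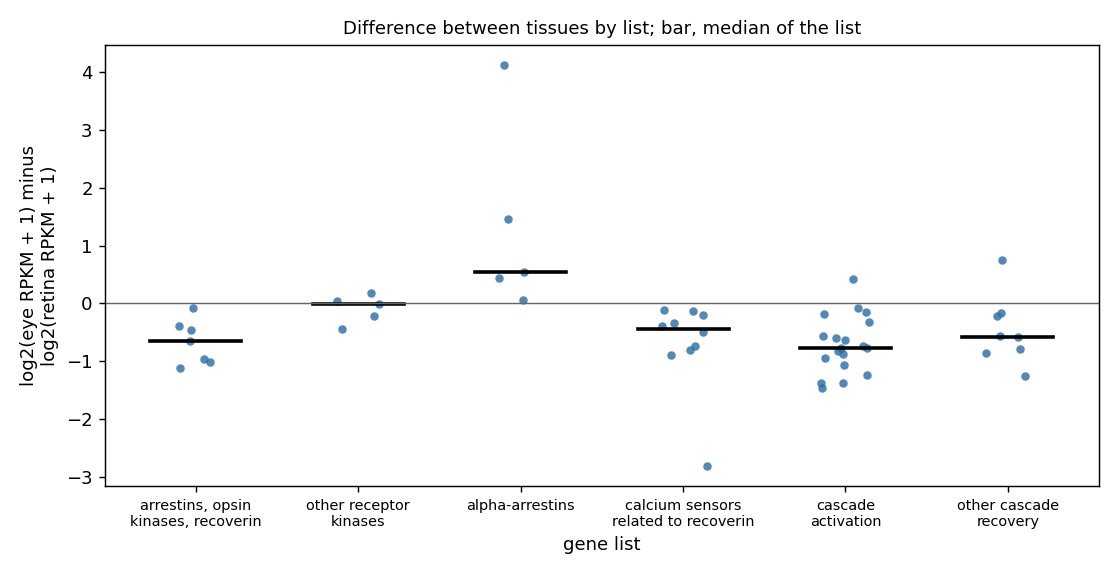
Difference between tissues (vertical axis, log2 scale, eye less retina, 1 RPKM added to each) for each gene of 6 lists, with a bar at the list median. The medians are -0.66 for the arrestins, opsin kinases and recoverin, -0.011 for the other receptor kinases, 0.54 for the alpha-arrestins, -0.44 for the calcium sensors, -0.77 for activation and -0.57 for the other recovery proteins.

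Over the 2 tissues, the levels nearest to those of ARR3 among 47 genes of these lists were those of PDE6H, which holds the cone phosphodiesterase inactive, at a distance of 0.39 on the log2 scale, and of the cyclase activator GUCA1A, at 0.57. Nearest to RCVRN were GUCA1A (0.64) and PDE6G (0.66), its counterpart in rods. Nearest to SAG were GNGT2 (0.29), the gamma subunit of the cone G protein, and HPCAL1 (0.38). Several of these neighbours also rest on short transcripts: the highest PDE6H transcript in retina had 151 bases, that of GUCA1A 147 and that of PDE6G 131. When shorter ones than 200 bases were left out, the difference was 0.33 for PDE6H and 1.15 for GUCA1A, both higher in eye. With best-matching transcripts it was -8.83 for PDE6H and -3.01 for GUCA1A, both lower in eye.

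Markers of lens, cornea, skeletal muscle and connective tissue were all higher in eye where both tissues had a value. The same held with best-matching transcripts. Of all proteins, 50.3% were lower in eye and 11.8% at least 2-fold higher. Some of the eye levels rest on short transcripts, as of 103 bases for KRT15 and 147 for CRYAA. All 12 lens markers were in the eye table, where they summed to 12326 RPKM, against 38.0 in retina, where CRYBB1, CRYBA2, CRYBA4 and MIP were not listed. The sums for eye and retina were 7286 and 3.34 RPKM for 6 corneal keratins (KRT3 and KRT13 not listed in retina) and 1113 and 4.23 for 7 skeletal muscle markers (TNNT3, MYH1 and MYH2 not listed in retina). They were 1670 and 322 RPKM for 9 pigment epithelium and melanin markers, of which 8 were higher in eye and BEST1, at 15.8 and 16.6 RPKM, was not, and 821 and 101 for 7 connective tissue markers. With best-matching transcripts TTR (TTHY), RGR and MLANA (MAR1) were lower in eye, at -2.36, -0.78 and -0.67. The others of the 9 were then higher, BEST1 by 0.0054. Rod markers other than the 7 genes were lower in eye for 11 of 11, with a median of -0.59. Cone markers were lower for 9 of 10, with a median of -0.91, where 50.3% of all proteins were lower. When transcripts under 200 bases were left out, 11 of 11 rod markers and 7 of 9 cone markers were lower. The cone markers, and the rod markers except ROM1, NRL and NR2E3, are also in the cascade activation list. These counts thus repeat values given above. The part of the tissues outside the retina in the eye levels of the 7 genes was not tested.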

How the data were processed

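RNA sequencing libraries of eye (2) and retina (3) were grouped by the tissue in their titles. The submitters' processing notes list Bowtie, without its version. For assembly and counting, the method is not given in the sources used here. Deposited expression values were read as RPKM: value times length was a whole multiple of 1 constant per table, within 0.01 reads, for 100% of transcripts. The reads recovered this way summed to 19.2 times the scaling total in eye and 10.5 times in retina, as if reads counted on several transcripts or the scaling used another total, neither of which was tested. The deposited Swiss-Prot tables give a percent similarity, a score, an E-value and an alignment length per transcript, per the file headers.

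Transcripts were joined on their ID and grouped by entry name before the species code. The comparison took proteins found in both tissues with at least 1 RPKM in one or the other, and a pseudocount of 1 RPKM. All 7 symbols were found in RefSeq names of assembly mIctTri1.hap1, used for names only. The members, lists and alternatives were chosen with earlier results of these data known. The named genes are the 7 members, up to 4 genes (opsins left out) per list with the highest mean level, list genes in 1 table only, and the nearest 2 list genes in level; GRK5, RGS9, ARRDC4 and markers were named besides. Calculations used Python 3.11.15, NumPy 2.4.6, pandas 2.3.3 and SciPy 1.17.1, and the functions were tested on simulated data. Close paralogs and short transcripts can share reads.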

Additional observations from a re-analysis of the deposited data

How the results depend on the processing

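No paired analysis was possible because the tables hold 1 value per tissue and no test was run. No library could be left out for the same reason. Of 85 differences of single genes under the alternatives, 6 were above 0, so higher in eye. These were ARR3 with best-matching transcripts and with transcripts of 500 bases or more (0.26 both times), RCVRN with the latter (0.97), ARRB2 with length-weighted means (0.20) and median transcripts (0.45), and GRK1 with median transcripts (1.38). The genes lower in eye then numbered 6 with best-matching transcripts or length-weighted means and 5 with transcripts of 500 bases or more or median transcripts. A pseudocount cannot change a sign, and many alternatives kept the same transcripts, so the count among the 85 does not measure stability. It also leaves out the median of SAG transcripts of 200 bases or more, which was higher in eye (46.2 against 15.6 RPKM). Median transcripts, alignments matched across tissues and the band of 130 to below 150 bases were chosen after seeing the data.

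Over all proteins, 482 were at least 2-fold lower in eye. This count was 2637 with sums, 272 with length-weighted means, 902 with an equal total and 265 with a pseudocount of 5. The 1577 at least 2-fold higher became 815 with that pseudocount and 921 with a filter at 10 RPKM.

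The ratio of ARR3 to SAG was 2345 in eye and 317 in retina with sums, 11.7 and 1.46 with best-matching transcripts, 7.52 and 8.76 with length-weighted means, and 18.4 and 7.69 with median transcripts. With transcripts of 500 bases or more it was 2.76 and 1.46, and with those of 200 bases or more it was 2.76 in eye. The ratio of GRK7 to GRK1 was 14.4 and 6.45 with sums, 3.98 and 4.13 with length-weighted means, 3.12 and 17.9 with median transcripts, and 4.68 in retina with best-matching transcripts. Of the 21 pairs among the 7 genes, 20 kept their order in eye with transcripts of 200 or of 500 bases or more. There SAG stood above RCVRN. In retina 19 pairs kept their order with sums, where ARRB2 and GRK1 stood above ARRB1. With best-matching transcripts 20 did, where RCVRN stood above ARR3. With those of 500 bases or more 20 did, where SAG stood above RCVRN. The cause was not tested.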

Other observations

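Few protein names were split into as many transcripts as ARR3 and RCVRN. By number of transcripts ARR3 ranked 14th of all names in eye and 3rd in retina, where its 1138 made up 1.81% of the transcripts with a Swiss-Prot hit. RCVRN ranked 36th in eye and 17th in retina. SAG, with 3 transcripts in eye and 27 in retina, ranked 2752nd and 109th. GRK7, with 5 transcripts in each tissue, had none under 200 bases, nor had GRK1, ARRB1 and ARRB2.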
